A study of Homo sapiens with 5 samples.

Results

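H3K27ac, the acetylation of histone H3 at lysine 27 that marks active promoters and enhancers, was compared between RD and RH18, human cell lines established from fusion-negative rhabdomyosarcoma. The members are the 89567 regions of the H3K27ac peak lists of RD (43159) and RH18 (46408), of 100703 regions in the 3 ChIP-seq lists, the other list being MYF5 in RH18. A region counted as shared where a region of the other line overlapped it by at least 1 bp on hg19, and as alone otherwise. The labels name no treatment. Both lines were grown in DMEM with 10% fetal bovine serum and penicillin/streptomycin, fixed for 12 min in 1% formaldehyde, and enriched with the same antibody (Active Motif 39133) and high-sensitivity kit. Rhabdomyosarcoma is a sarcoma whose cells resemble immature skeletal muscle, and fusion-negative tumours lack the PAX-FOXO1 fusion gene. Each line was represented by 1 H3K27ac library, so no difference below has a replicate error or a test, and each compares these 2 libraries. A cell line is a culture from 1 tumour, and neither line stands for fusion-negative tumours in general. Input DNA was sequenced for both lines but no input list was analysed here, and the depth of the libraries is unknown.

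The myogenic regulatory factors MYF5, MYOD1, MYF6 and MYOG are basic helix-loop-helix (bHLH) proteins that pair with E proteins, bind the E-box CANNTG and turn on muscle genes. MYF5 and MYOD1 set the muscle lineage in progenitors, while MYOG drives their differentiation. PAX3 and PAX7 act upstream of them in embryonic progenitors and satellite cells. In rhabdomyosarcoma the cells express such factors without completing differentiation, and fusion-negative tumours often carry mutations of RAS or receptor pathways.

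Promoter sequences are shown for 5 genes on which the comparison below turns: MYF5 and MYF6, whose promoters held a region in RH18 alone, CXCR4, held in RD alone, and MYOG and FGFR4, held in both. Each is the 250 bases before the first listed start in RefSeq's promoter table for GRCh38.p14, written 5′ to 3′ along the gene, with E-boxes (CANNTG) in capitals. These positions belong to that build and are not those of the peak lists.
MYF5, chr12:80716662-80716911, plus strand: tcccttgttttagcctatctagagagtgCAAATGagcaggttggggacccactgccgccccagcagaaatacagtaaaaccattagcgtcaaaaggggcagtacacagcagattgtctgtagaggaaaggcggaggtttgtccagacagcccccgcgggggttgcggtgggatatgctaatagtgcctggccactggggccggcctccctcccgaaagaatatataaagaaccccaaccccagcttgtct
MYF6, chr12:80707384-80707633, plus strand: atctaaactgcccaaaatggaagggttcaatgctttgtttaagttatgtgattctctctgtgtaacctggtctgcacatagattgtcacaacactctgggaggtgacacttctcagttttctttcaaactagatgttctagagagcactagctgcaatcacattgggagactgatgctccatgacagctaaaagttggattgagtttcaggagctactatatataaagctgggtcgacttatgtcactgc
CXCR4, chr2:136118150-136118399, minus strand: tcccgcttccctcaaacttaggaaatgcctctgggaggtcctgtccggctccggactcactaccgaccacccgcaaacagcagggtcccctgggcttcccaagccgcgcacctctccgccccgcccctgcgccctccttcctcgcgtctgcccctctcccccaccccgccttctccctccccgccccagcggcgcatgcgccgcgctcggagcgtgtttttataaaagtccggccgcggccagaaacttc
MYOG, chr1:203086013-203086262, minus strand: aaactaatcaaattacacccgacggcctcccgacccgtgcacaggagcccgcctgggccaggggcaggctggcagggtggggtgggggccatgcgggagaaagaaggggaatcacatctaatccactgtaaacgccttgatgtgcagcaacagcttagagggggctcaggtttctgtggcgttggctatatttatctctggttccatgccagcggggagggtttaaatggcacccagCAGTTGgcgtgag
FGFR4, chr5:177086665-177086914, plus strand: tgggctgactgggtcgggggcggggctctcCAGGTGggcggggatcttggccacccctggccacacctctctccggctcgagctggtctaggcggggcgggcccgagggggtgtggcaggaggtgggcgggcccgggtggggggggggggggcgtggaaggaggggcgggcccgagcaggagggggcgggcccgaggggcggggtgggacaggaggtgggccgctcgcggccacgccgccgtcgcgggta
MYF5, MYOG and FGFR4 had 1 E-box each in these windows, and MYF6 and CXCR4 had 0. A promoter sequence was found for 303 of the 448 genes classed below. It is that of the first listed start, while a gene was classed on any start placed on hg19. Sequence and class can therefore belong to different promoters of a gene. Searched on both strands, CANNTG occurred in 61.8% of all 35093 such windows, and in 55.1% of the 156 promoters held by both lines, 63.2% of the 19 held by RD alone, 48.8% of the 41 held by RH18 alone and 65.5% of the 87 held by neither. Its form CAGCTG, which CANNTG includes, occurred in 14% of all windows, and in 14.7%, 21.1%, 26.8% and 16.1% of those classes. TGANTCA, the AP-1 site, occurred in 6.57% of all windows and in 4.49%, 5.26%, 2.44% and 9.2% of the classes. GGAATG, a TEAD site, occurred in 11.9% of all windows, and TGTGGT, a RUNX site, in 11%. Among promoters held by RD alone, GGAATG occurred in 5 and TGTGGT in 2, and among those held by RH18 alone, in 7 and 0. A match is a string of letters in a window and does not show binding.

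Unshared regions ranged from close neighbours of a region of the other line to places far from any. In RD, 25884 regions (60.0%, exact Clopper-Pearson 95% interval 59.5 to 60.4%) were shared and 17275 (40%) were alone. In RH18, 20907 (45.1%, 44.6 to 45.5%) were shared and 25501 (54.9%) were alone. Intervals here cover counting error only. A region absent from a list may reflect fewer cells with the mark or less of it per cell. It may also reflect the depth or the peak calling of that library, and these cannot be told apart. The lists ended at different −log10 p-values, as deposited by the authors (lowest 5.0 in RD and 7.09 in RH18), and what this adds to regions held by one line was not tested. Of the RD regions alone, 23.8% lay within 1 kb of an RH18 region, 41.2% within 5 kb, and 14.6% beyond 100 kb, with a median distance of 9981 bp. Of the RH18 regions alone, 17.9% lay within 1 kb of an RD region, 35.0% within 5 kb, and 13.7% beyond 100 kb, with a median of 12624 bp. The boundaries also differed: 18.4% of shared RH18 regions overlapped 2 RD regions and 4.35% overlapped 3 or more, against 2.97% and 0.247% of shared RD regions. When regions of both lists within 12.5 kb of each other were joined, 22443 islands resulted. Of these, 12125 (54.0%) contained regions of both lines, 3918 were of RD alone and 6400 of RH18 alone. Islands with both lines contained 57.3% of the unshared RD regions and 55.2% of the unshared RH18 regions.

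Genes were then placed on hg19 and classed at the promoter (1 kb either side of a start site) and at the locus (gene body and 10 kb either side). The start sites and gene ends were set by hand from general knowledge of hg19 and may be off, which a 1 kb window does not forgive. Of 448 placed genes, all from lists of muscle, signalling, tumour and control genes, 224 promoters (50%) had regions of both lines, 30 (6.7%) of RD alone, 64 (14.3%) of RH18 alone and 130 (29%) of neither. At loci, 324 genes (72.3%) had both, 19 (4.24%) RD alone, 44 (9.82%) RH18 alone and 61 (13.6%) neither. All 15 classed housekeeping promoters, such as GAPDH, ACTB and RPLP0, had regions of both lines. Counts of regions alone at single genes, given below, stand beside 40% of RD and 54.9% of RH18 regions alone over the entire lists. Regions at placed starts were shared in 83.7% (80.2 to 86.8%) of 510 RD and 73.1% (68.8 to 77.0%) of 475 RH18 cases, and regions elsewhere in the gene bodies in 55.1% (52.1 to 58.2%) of 1059 and 37.1% (34.4 to 39.8%) of 1267. Regions at starts were also wider than those inside genes (median 537 against 345 bp in RD and 861 against 436 bp in RH18); the part of width in these shares was not tested.

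**Figure D1:**
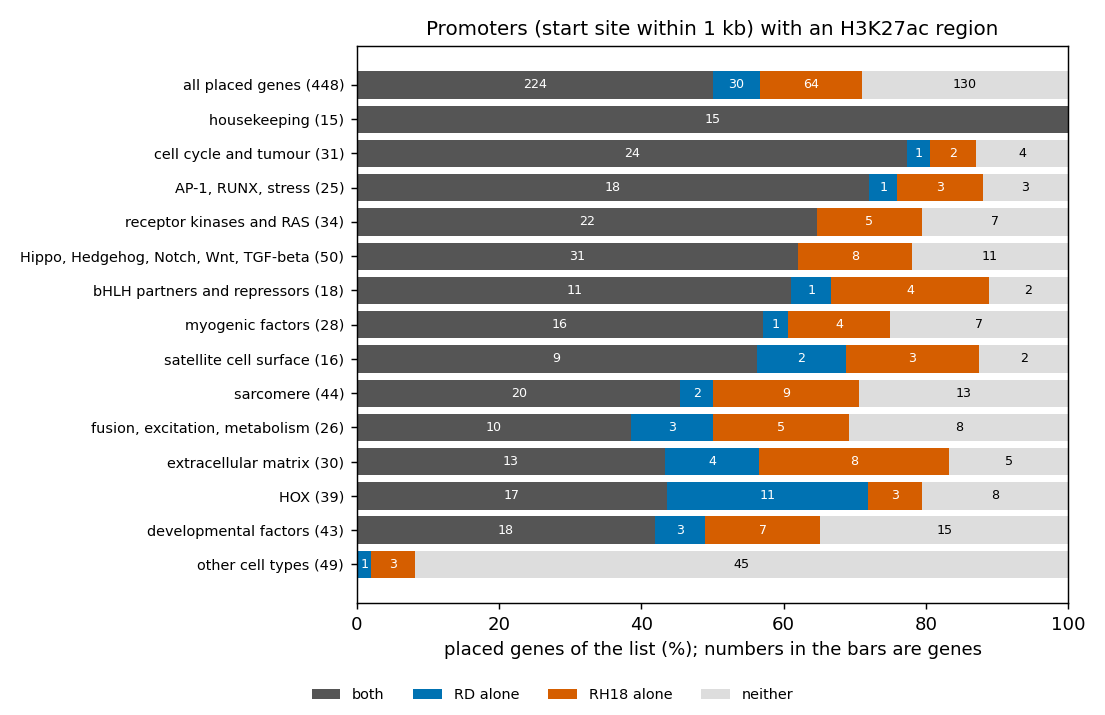
Promoter classes of the placed genes by list, in percent of each list (gene numbers in brackets and in the bars): regions of both lines, of RD alone, of RH18 alone, or neither. All 15 housekeeping promoters fall in both, and 45 of 49 promoters of other cell types fall in neither.

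Of the 28 myogenic factors, 16 promoters had regions of both lines, 1 of RD alone (3.57%, against 6.7% of all placed), 4 of RH18 alone (14.3%, as over all placed) and 7 of neither. MYF5, the earliest of the myogenic regulatory factors in the embryo, was held by RH18 alone. Its locus had 4 RH18 regions covering 3640 bp, and 0 in RD. One of them, chr12:81110480-81111443, spanned positions -228 to 735 from the MYF5 start and contained a MYF5 summit. MYF6 (MRF4), a factor expressed in muscle fibres, starts upstream of MYF5, and its promoter also had a region in RH18 alone, chr12:81101425-81102944, at 17 to 1536 from its start. That region contained another MYF5 summit of the RH18 list. The only RD region at these genes, chr12:81096469-81097182, lay at -4939 to -4226 from the MYF6 start and overlapped no RH18 region. Thus RD and RH18 regions did not overlap anywhere in the MYF5 and MYF6 windows.

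MYOD1 showed the opposite pattern at its promoter. Its start had regions in RD alone, at -929 to -271 (chr11:17740181-17740839) and at 116 to 2772 (chr11:17741226-17743882), followed by another at 2924 to 3348. RH18 had no region within 1 kb of the start. Upstream, both lines had overlapping regions: chr11:17720548-17721909 in RD and chr11:17720476-17721762 in RH18 lay at -20562 to -19201 and -20634 to -19348 from the start, and the RH18 region contained the one MYF5 summit of the plotted locus. Regions also overlapped nearer to the start, at -12108 to -11698 and -5640 to -5173 in RD and at -12218 to -11193 and -5634 to -4430 in RH18. Downstream, RH18 had regions alone at 10436 to 10955, 11264 to 11581 and 15404 to 16025. Within 10 kb of the gene, 2 of 5 RD regions and 1 of 4 RH18 regions were shared, covering 4785 bp and 2470 bp in all.

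MYOG was held by both lines. Its locus had 8 RD regions (8743 bp), of which 7 were shared, and 9 RH18 regions (7362 bp), of which 8 were shared. At the start the RD regions spanned -1940 to -276 and -22 to 1694, and an RH18 region spanned -513 to 1763. The RH18 MYF5 list had 4 summits in the locus. MYOG thus had nearly all of its regions in common, where MYF5 had none.

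**Figure D2:**
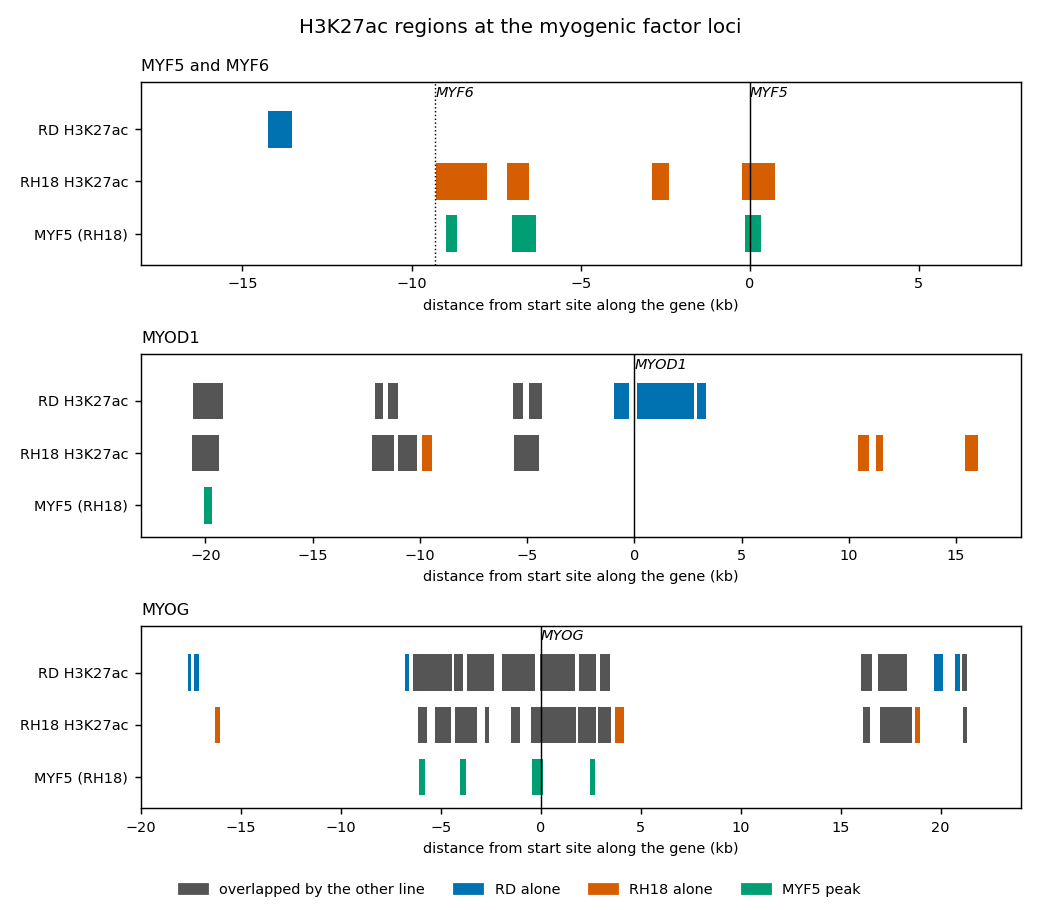
H3K27ac regions and MYF5 peaks at MYF5 and MYF6, MYOD1 and MYOG by distance in kb from the start along the gene (solid line; dotted, the MYF6 start), with blocks coloured by whether the other line overlaps them. The MYF5 start has a block in RH18 alone, the MYOD1 start has blocks in RD alone with shared blocks upstream, and the MYOG start has shared blocks.

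PAX3 and PAX7 promoters were held by both lines. PAX3 had 2 regions in each line, of which 1 each overlapped, at 14 to 865 from the start in RD and -37 to 753 in RH18. PAX7 had 16 RD regions (14376 bp, 9 shared) and 17 RH18 regions (12143 bp, 9 shared). Between 5830 and 9798 bp into PAX7 there were 5 RD regions alone, and from 88448 to 91817 bp there were 5 RH18 regions alone. Shared regions lay at the promoter and at several places inside the gene, up to 82240 bp from the start. TCF21, a bHLH factor of mesenchyme, had 2 RH18 regions (1236 bp), one at 5 to 315 from its start, and 0 in RD. RXRG, a retinoid X receptor, had 1 RH18 region of 255 bp at -219 to 35, overlapped by a MYF5 peak at -12 to 190, and 0 in RD. KLF5, a zinc finger factor, had 3 RH18 regions (980 bp) from 4136 to 5350 and 0 in RD, none at the start. MEF2C, which works with the myogenic factors on muscle promoters, had 5 regions in RD (1730 bp) from 14412 to 89866 bp into the gene, and 0 in RH18. MEOX2, a homeobox gene of somites and limb muscle, had 1 RD region (304 bp) and 0 in RH18. At MEF2C, MEOX2 and KLF5 neither line had a region at the promoter. PITX3, a homeobox gene chosen here after its values were seen, had a promoter held by both lines but 8 of its 12 RD regions alone, against 0 of 5 in RH18.

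Among the 18 bHLH partners and repressors, 11 promoters had both lines, 1 RD alone (HAND2), 4 RH18 alone (ID4, SNAI1, TWIST1 and ATOH8) and 2 neither. RD alone made up 5.56% and RH18 alone 22.2% of this list, against 6.7% and 14.3% of all placed promoters. HAND2, a bHLH factor of heart and limb, had 5 RD regions (2721 bp), the first at 31 to 222 from its start, and 0 in RH18. ATOH8, a bHLH factor, had 27 RH18 regions, 20 of them alone (22728 bp), and 12 RD regions, all shared; no RD region lay at its start. SNAI1 and TWIST1, repressors of epithelial genes, had 2 and 1 RH18 regions and 0 in RD. TCF4, an E protein, had 9 of 14 RD regions alone, and all 5 RH18 regions shared.

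Among 16 surface genes of satellite cells, the stem cells of muscle, 9 promoters had both lines, 2 RD alone (CXCR4 and BOC), 3 RH18 alone (SDC3, SDC4 and NEO1) and 2 neither. RD alone made up 12.5% and RH18 alone 18.8% of this list, against 6.7% and 14.3% of all placed promoters. CXCR4, the receptor of the chemokine CXCL12, had 6 RD regions (3023 bp), of which 5 formed a row from -3694 to -142 relative to the downstream start, and 0 in RH18. BOC, a cell surface partner of hedgehog receptors that is linked to muscle differentiation, had 16 RD regions covering 12795 bp, 15 of them alone. Its only RH18 region, chr3:112995061-112995281, measured 221 bp and lay 65211 bp into the gene. NCAM1, a neural cell adhesion molecule that muscle cells also carry, had 13 of 19 RD regions alone, and its 4 RH18 regions were all shared. In the other direction, SDC3, a heparan sulfate proteoglycan, had 11 of 13 RH18 regions alone while its 3 RD regions were shared, and SDC4 had 6 of 7 alone.

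Of the 34 receptor kinase and RAS pathway genes, 22 promoters had both lines, 0 RD alone, 5 RH18 alone (14.7%, against 14.3% of all placed) and 7 neither. FGFR4, a growth factor receptor of muscle progenitors and a target of mutations in rhabdomyosarcoma, had 11 RD regions (11827 bp, 10 shared) and 7 RH18 regions (17076 bp, 6 shared). An RH18 region of 8523 bp (4499 to 13021 from the start) spanned several RD regions, and the locus had 4 MYF5 summits. FGFR1 was held at its start by RH18 alone, but its locus had 7 regions in each line, 3 of the RD and 5 of the RH18 regions shared, and with a window of 2.5 kb its promoter was held by both. EGFR likewise had 23 RD and 24 RH18 regions, 16 and 14 of them shared, with no RD region at the start. PDGFRB, a receptor of mesenchymal cells, had 15 RH18 regions (22376 bp), 14 of them alone, and 2 RD regions (1220 bp), both shared. Its start lay in an RH18 region of 2928 bp that contained a MYF5 summit. PDGFB, its ligand, had 9 RH18 regions (3908 bp), none of them at the start, and 0 in RD. PDGFD, another ligand of this receptor, had 3 RH18 regions (881 bp) and 0 in RD. KIT, the stem cell factor receptor, had 2 RH18 regions (509 bp), one of them at 978 to 1253 from its start and so at the edge of the window (no promoter region with 500 bp), and 0 in RD. PDGFRA, the other receptor, had no region in either line, and the ligand gene PDGFC, chosen here after its values were seen, had both lines at the promoter with 7 of 9 RD regions and 2 of 4 RH18 regions alone.

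Of the 31 cell cycle and tumour genes, 24 promoters had both lines, 1 RD alone (LIN28B), 2 RH18 alone (MYCN and MYCL) and 4 neither. RD alone made up 3.23% and RH18 alone 6.45% of this list, against 6.7% and 14.3% of all placed promoters. MYC, the growth-promoting transcription factor, was covered by 1 RH18 region of 4329 bp, where RD had 5 regions (4147 bp), 4 of them shared. MDM2, which degrades p53, had 2 RD regions at -863 to -271 and 13 to 926, and 1 RH18 region at -890 to 914 that overlapped both. CDK4, a cyclin D kinase, had 3 RD (2451 bp) and 2 RH18 (3041 bp) regions, all shared. MYCN had an RH18 region of 320 bp at -428 to -109, and MYCL one of 970 bp at 335 to 1304, and both loci had other regions in RD, which at MYCN lay within 2.5 kb of the start. LIN28B, an inhibitor of let-7 microRNA processing, had RD regions at 51 to 723 and 939 to 1248, and its 2 RH18 regions lay elsewhere. LIN28A and CPM, a carboxypeptidase gene beside MDM2, had 1 RH18 region each (308 and 254 bp), neither at the start, and 0 in RD. HMGA2, a chromatin protein gene repressed by let-7 and chosen here after its values were seen, had a shared promoter and 26 RD regions (12336 bp), 22 of them alone, against 4 in RH18 (3733 bp), all shared.

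Sarcomere genes were held by RH18 alone more often than by RD alone, at shares that stood near those of all placed genes. Of 44, 20 promoters (45.5%, 50% of all placed) had both lines, 2 (4.55%, against 6.7%) RD alone, 9 (20.5%, against 14.3%) RH18 alone and 13 neither. MYL1, a myosin light chain of fast fibres, and TTN, the giant spring protein titin, were held by RD alone, with 7 (1717 bp) and 3 regions (843 bp). The call at MYL1 rested on its downstream start: the region lay 11427 to 11694 bp from the upstream one. TNNI2, fast troponin I, and TPM1, a tropomyosin, were held by RH18 alone. TPM1 had 9 RH18 regions (6085 bp), including -1196 to -109 and 70 to 1780 on either side of the start, and 0 in RD. TNNI2 had 10 RH18 regions, 9 of them alone (5217 bp), and the remaining one overlapped an RD region outside the window. MYH9, a non-muscle myosin with a shared promoter, had 45 of 52 RH18 regions alone (31566 bp), and all 13 RD regions shared. MYH3, the embryonic myosin, went the other way, with 6 of 10 RD regions alone and 1 of 5 in RH18.

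Of 26 genes of fusion, excitation and metabolism, 10 promoters had both lines, 3 RD alone (MYMK, MUSK and KLHL41), 5 RH18 alone (CACNA1S, CAV3, CKB, DYSF and JPH1) and 8 neither. RD alone made up 11.5% and RH18 alone 19.2% of this list, against 6.7% and 14.3% of all placed promoters. MYMK encodes myomaker, which fuses myoblasts; an RD region alone lay at 12 to 552 from its start, while 5 of 6 RD and 5 of 7 RH18 regions of the locus were shared and both lines had regions within 2.5 kb of the start. DYSF, the membrane repair protein dysferlin, had 22 of 23 RH18 regions alone (15452 bp), against 1 RD region of 439 bp. SGCA, a sarcoglycan, had 7 of 12 RH18 regions alone (18742 bp). CKB, a creatine kinase, had 5 of 7. JPH2 and JPH1, which couple membranes of the contraction apparatus, had 8 of 20 and 6 of 7. Over the entire RH18 list 54.9% of regions were alone, so JPH2 lay below that share and SGCA near it. ATP2A1, the calcium pump of fast muscle, had both RH18 regions shared and 3 of 6 RD regions alone, where 40% were alone over the entire RD list.

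At most extracellular matrix genes with regions of both lines, RH18 regions covered more bases. Of 30 promoters, 13 had both lines, 4 RD alone (COL3A1, COL5A2, COL11A1 and LAMA4), 8 RH18 alone (COL1A2, COL6A2, COL6A3, COL12A1, ELN, LOX, LOXL2 and FBN2) and 5 neither. RD alone made up 13.3% and RH18 alone 26.7% of this list, against 6.7% and 14.3% of all placed promoters. Among the 21 with both lines at the locus, the median ratio of bases in RH18 to bases in RD was 2.88, 17 had more in RH18 and 4 more in RD. Over all 324 such placed loci the median was 1.22, with 197 higher in RH18 and 127 in RD, and over the entire lists the ratio was 1.54, since RH18 regions covered 32.54 Mb and RD regions 21.19 Mb. ELN, the elastin gene, had 27 RH18 regions covering 29294 bp and 0 in RD. LOXL2, an enzyme that crosslinks collagen and elastin, had 34 of 42 RH18 regions alone (41521 bp), and 2 of 12 in RD. COL1A1, a chain of type I collagen, had 10 of 15 RH18 regions alone (21830 bp) and all 8 RD regions shared. COL4A1 and COL4A2, the neighbouring basement membrane collagens, had 24 of 27 and 25 of 49 alone in RH18. Over the entire RH18 list 54.9% of regions were alone, and COL4A2 lay below that share. COL15A1 had 19 of 29 alone in RH18 and 9 of 19 in RD.

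Among 50 Hippo, Hedgehog, Notch, Wnt and TGF-beta genes, 31 promoters had both lines, 0 RD alone, 8 RH18 alone (CCN2, AMOTL2, DLL1, AXIN2, TGFB2, SKI, BMP4 and IL6) and 11 neither. RH18 alone made up 16% of this list, against 14.3% of all placed promoters. CCN2 and AMOTL2 are known YAP target genes, while TGFB2 and BMP4 are ligands. GLI2, an effector of Hedgehog signalling, had 32 of 42 RH18 regions alone (20482 bp) and 1 of 14 in RD, and its relative GLI3 had 7 of 17 alone in RH18 and 22 of 33 in RD. SMAD3 and SMAD7, of the TGF-beta pathway, had 25 of 45 and 14 of 19 RH18 regions alone, and 6 of 25 and 0 of 6 in RD. SMAD3 thus lay near the 54.9% alone over the entire RH18 list. SKI and AMOTL2 had 11 of 16 and 9 of 12 alone in RH18.

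Of 25 AP-1, RUNX and stress genes, 18 promoters had both lines, 1 RD alone (FOSB), 3 RH18 alone (MAFK, EGR2 and KLF4) and 3 neither. RD alone made up 4.0% and RH18 alone 12.0% of this list, against 6.7% and 14.3% of all placed promoters. The median base ratio at the 21 loci with both lines was 1.93. ZMIZ1, a coactivator gene, was covered over 33169 bp by 57 RD regions, 4 of them alone, and over 79760 bp by 59 RH18 regions, 26 alone. FOSL1 and FOSL2, subunits of AP-1, had 9 of 13 and 6 of 10 RH18 regions alone, against 0 of 6 and 1 of 8 in RD. FOSL2 lay near the 54.9% alone over the entire RH18 list.

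Most promoters of HOX genes, which give positional identity along the body axis, that were held by one line were held by RD. Of 39, 17 promoters had both lines, 11 (28.2%, 6.7% of all placed) RD alone, 3 (7.69%, against 14.3%) RH18 alone and 8 neither. At the 36 loci with both, the median ratio of RH18 to RD bases was 0.67, but neighbouring HOX windows overlap and share regions. Taken by cluster, HOXA had 44 RD regions covering 40.2 kb, 26 of them alone, and 13 RH18 regions covering 15.7 kb, 1 alone. HOXB had 47 (36.1 kb, 21 alone) against 27 (29.0 kb, 6 alone). HOXC had 43 (38.9 kb, 23 alone) against 30 (30.2 kb, 7 alone). HOXD had 23 (12.7 kb, 20 alone) against 4 (1.77 kb, 0 alone). In all 4 clusters RD regions were more numerous and covered more bases, against the direction of the entire lists.

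Of 43 other developmental factors, 18 promoters had both lines, 3 RD alone (NR2F1, MSX1 and PAX2), 7 RH18 alone (FOXC2, SOX9, MSX2, TFAP2A, GATA2, EN1 and EBF1) and 15 neither. RD alone made up 6.98% and RH18 alone 16.3% of this list, near the 6.7% and 14.3% of all placed promoters. PAX2, a kidney and brain factor, had 6 RD regions (4583 bp), and 0 in RH18. MSX1 and MSX2, related homeobox genes, were held by different lines, with 1 RD region (712 bp) and 3 RH18 regions (2303 bp). NFIX, a nuclear factor I gene, had 10 of 14 RH18 regions alone and 3 of 7 in RD. PRRX2 had 10 of 12 alone in RH18 and 0 of 2 in RD, and MEIS2 4 of 8 alone in RD and 0 of 3 in RH18. Over the entire lists 40% of RD and 54.9% of RH18 regions were alone.

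**Figure D3:**
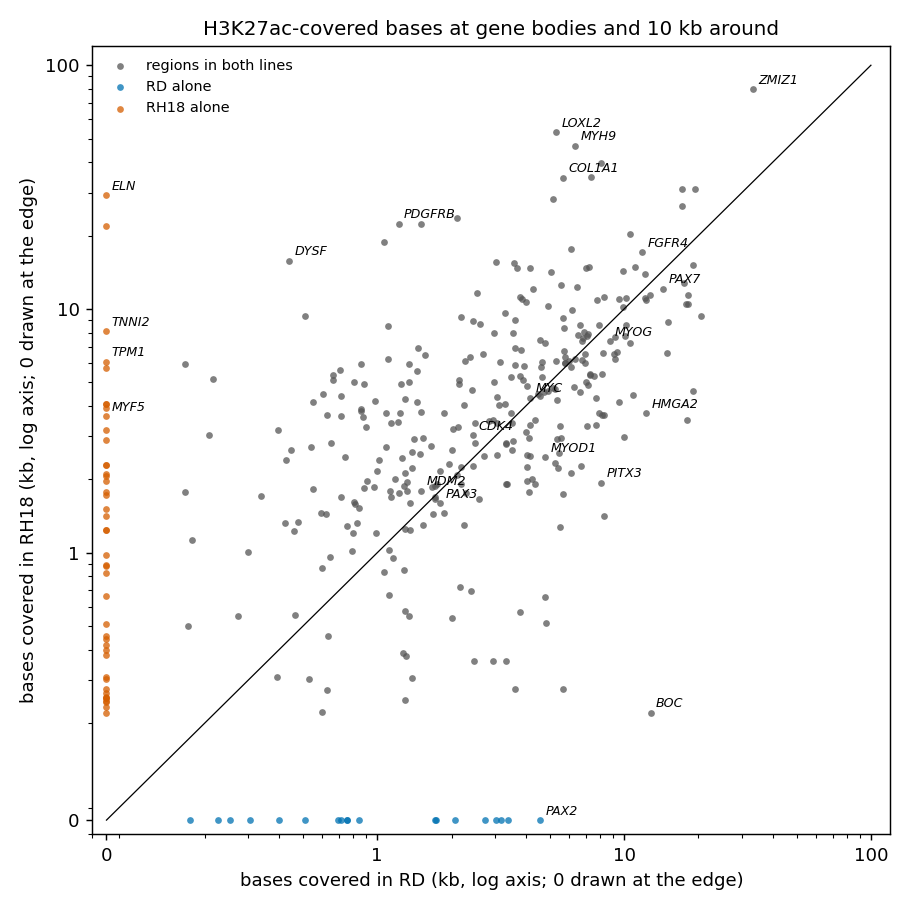
Bases covered by H3K27ac regions at each placed locus (gene body and 10 kb around) in kb, RD on the x axis and RH18 on the y axis (log axes, 0 drawn at the edge; the line marks equal cover), 1 point per gene. MYOG, MYC, MDM2 and CDK4 lie near the line, while ELN, TPM1, TNNI2 and MYF5 lie on the RH18 edge and PAX2 on the RD edge.

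The placed genes with most bases of unshared regions and no region of the other line at the locus were, in RD, PAX2 (6 regions, 4583 bp), SOX6 (11, 3382 bp), NR2F1 (6, 3179 bp), CXCR4 (6, 3023 bp), HAND2 (5, 2721 bp), DMD (6, 2061 bp), MEF2C (5, 1730 bp), MYL1 (7, 1717 bp), TTN (3, 843 bp) and HOXD3 (2, 755 bp). SOX6 is a repressor of slow fibre genes, NR2F1 a nuclear receptor and DMD the dystrophin gene; SOX6 and DMD had no region at the promoter in either line. In RH18 they were ELN (27, 29294 bp), TPM1 (9, 6085 bp), TGFB2 (9, 5704 bp), TNNI2 (9, 5217 bp), FOXC2 (5, 4074 bp), COL6A2 (6, 4067 bp), PDGFB (9, 3908 bp), MYF5 (4, 3640 bp), COL12A1 (5, 3181 bp) and ERG (3, 2892 bp). FOXC2 is a forkhead factor of mesoderm, COL6A2 and COL12A1 are collagen genes of muscle connective tissue, and ERG is an ETS factor best known from endothelium, here without a promoter region. MYF5, mapped in RH18 only, had summits at 251 of all 448 placed loci (56.0%), at 1 of these 10 RD loci (SOX6) and at 7 of these 10 RH18 loci (all but FOXC2, COL6A2 and PDGFB). The RD loci were chosen for having no RH18 region and the RH18 loci for having most unshared RH18 bases. These counts therefore cannot show a link of MYF5 to either set.

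**Figure D4:**
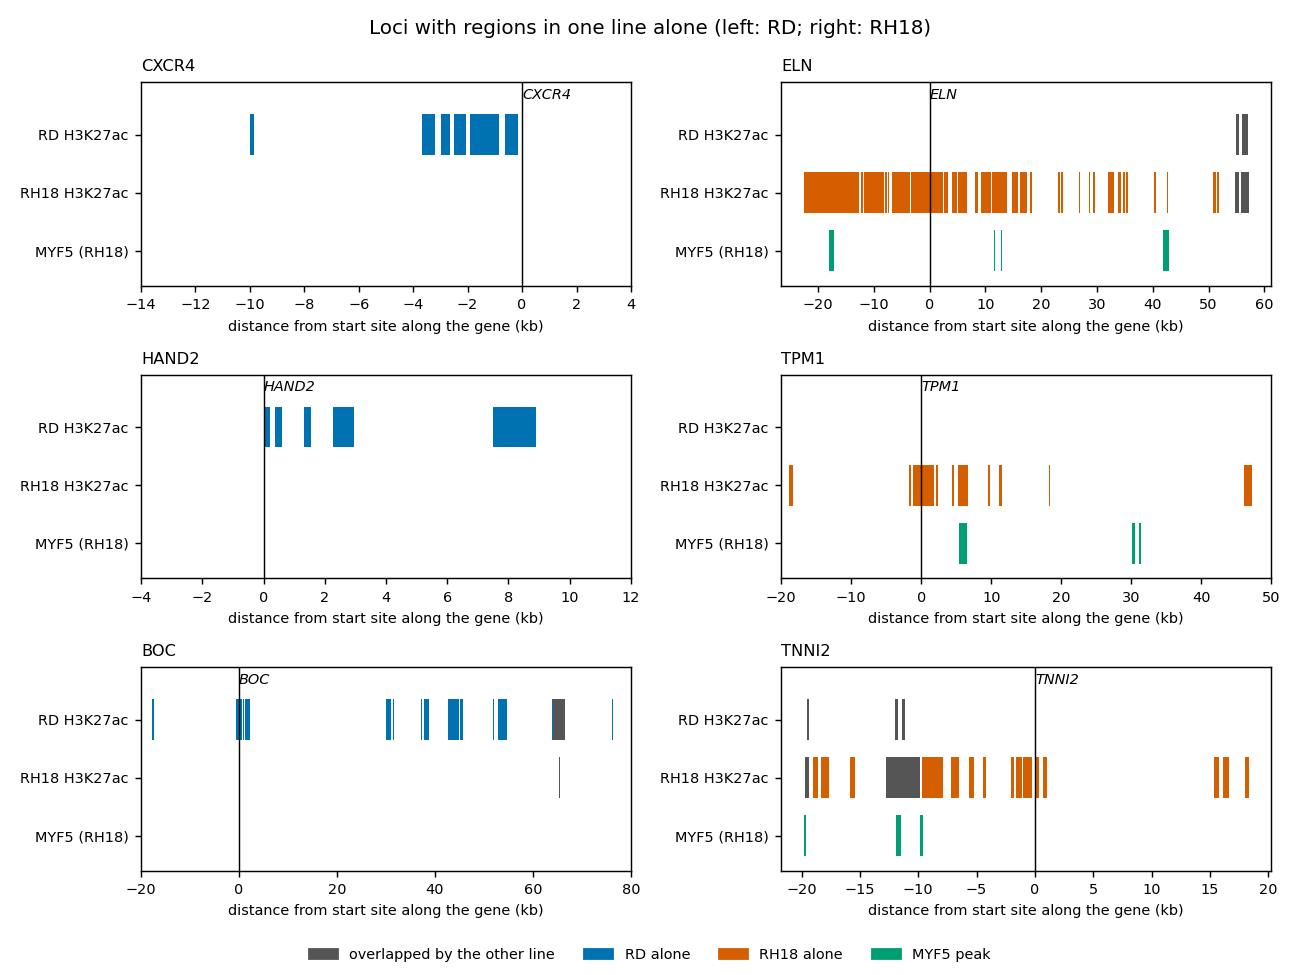
H3K27ac regions at CXCR4, HAND2 and BOC (left) and ELN, TPM1 and TNNI2 (right) by distance in kb from the start along the gene (solid line; for CXCR4 the downstream start), coloured as alone or overlapped by the other line. The left panels show RD blocks with at most 1 RH18 block (BOC), and the right panels show RH18 blocks with RD blocks only beyond the ends of ELN and TNNI2.

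Runs of regions of one line, with gaps of up to 50 kb and no region of the other line between, were then ranked by covered bases, and the genes at them were placed afterwards. RD had 671 runs of 5 or more regions with 31.6% of its unshared regions, and RH18 had 1138 with 35.6%. In RD the first (chr8:129862931-130012228) had 62 regions covering 25.6 kb and no placed gene, and the fourth (chr8:130014300-130326336, 44 regions, 16.3 kb) lay 37604 bp from CCDC26, a long non-coding RNA gene. The second (chr3:57084021-57199298, 35 regions, 21.7 kb) included ARHGEF3, a guanine nucleotide exchange factor gene, and IL17RD, an inhibitor of FGF signalling. The third (chr4:124479092-124751311, 48 regions, 17.5 kb) and the eighth (chr12:76118896-76303264, 33 regions, 11.6 kb) had no placed gene. The others lay at BOC (chr3:112813026-112993863, 24 regions, 14.9 kb), at TLL2 (chr10:98159525-98207417, 19 regions, 13.7 kb), between SPRY4 and FGF1 (chr5:141738589-141931365, 26 regions, 11.6 kb), between SLF2 and PAX2 (chr10:102652133-102671605, 17 regions, 11.4 kb) and at AOPEP (chr9:97768641-97852052, 21 regions, 10.9 kb). SPRY4 is an inhibitor and FGF1 a ligand of receptor kinases. For all these RD runs the nearest RH18 region lay only 77 to 1335 bp away. An RH18 region also lay between the first and the fourth. The runs are therefore stretches between RH18 regions and not places far from any.

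The first run in RH18, chr19:43322321-43775617, had 97 regions covering 66.6 kb in the cluster of pregnancy-specific glycoprotein genes (PSG1 and PSG9 inside), with no RD region nearer than 261099 bp. The PSG genes are closely related copies, so the placement of regions among them is uncertain. The second (chr7:73391105-73494287, 41 regions, 51.5 kb) included ELN. A separate run beside it (chr7:73267084-73336918, 14 regions, 23.9 kb) included WBSCR28 and lay 20069 bp from CLDN4. The third (chr2:218733809-218876161, 42 regions, 39.3 kb) lay in TNS1, which ties integrins to actin. The fourth (chr12:1904427-1993660, 40 regions, 30.8 kb) lay at CACNA2D4, a calcium channel subunit gene, and LRTM2, and had 24 MYF5 summits within its span. The other named RH18 runs had 1 to 6. Runs of rank 16 and 17, also on chromosome 12, had 22 and 9. Over the entire RH18 list 4.31% of regions alone contained a summit. What lies behind the high counts on chromosome 12 was not tested. The remaining 5 lay at RTL6 (chr22:44722069-44894108, 27 regions, 26.9 kb), AHRR (chr5:316806-397273, 12 regions, 25.9 kb), ERGIC1 (chr5:172327024-172385324, 26 regions, 25.1 kb), METRNL (chr17:81010930-81155348, 27 regions, 25.1 kb), and NDST1 with SYNPO (chr5:149879150-150036706, 37 regions, 23.9 kb). AHRR represses the aryl hydrocarbon receptor, and METRNL is a hormone secreted by muscle and fat. Apart from the PSG run, the named RH18 runs had their nearest RD region 154 to 26758 bp away.

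Chromosomes differed in their shares. In RD the share that was shared ran from 42.5% (40 to 45.0%) on chromosome 4 to 83.6% (81.8 to 85.2%) on chromosome 19. In RH18 it ran from 32.5% (29.1 to 36.0%) on chromosome 21 to 54.1% (51.7 to 56.4%) on chromosome 9. The number of RH18 regions for each RD region ran from 0.73 on chromosome 4 to 1.62 on chromosome 22, against 1.08 over the lists. Chromosome 6 had a stretch of 5.1 Mb (28442496 to 33538725) without a region in any of the 3 lists, and 3 listed genes in it (TUBB, IER3 and NOTCH4) were left unclassed after this was seen.

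**Figure D5:**
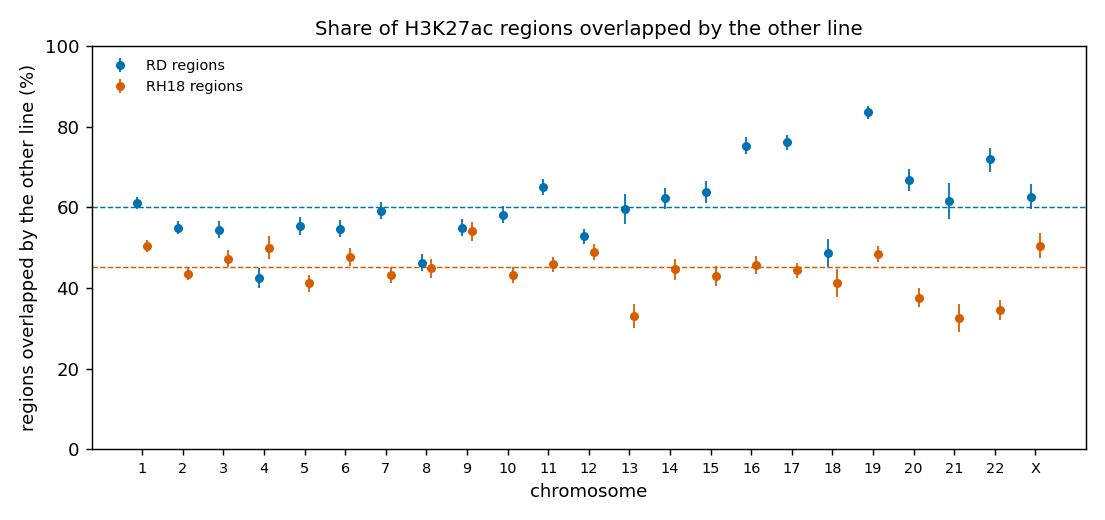
Share of H3K27ac regions overlapped by the other line (%), by chromosome, for RD and RH18 regions, with exact Clopper-Pearson 95% intervals; dashed lines mark the shares over the lists (60.0% and 45.1%). RD reaches 83.6% on chromosome 19, and RH18 lies lowest on chromosome 21 (32.5%).

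Markers of other cell types were mostly without a promoter region. Of 49 classed markers of blood, epithelium, endothelium, nervous tissue and liver, 0 promoters had both lines, 1 had RD alone (KRT18), 3 RH18 alone (CLDN4, ELF3 and GFAP) and 45 neither. All 11 blood and all 8 liver promoters were among the latter, including PTPRC and ALB. At the loci of the 49 markers, 16 (32.7%, against 72.3% of all placed) had both lines and 26 (53.1%, against 13.6%) neither. RD alone made up 2 and RH18 alone 5 (4.08% and 10.2%, against 4.24% and 9.82%). Among 8 skeletal muscle markers set with the lists, DES (desmin), MYH3, ACTC1, CHRNA1, CDH15 and MYOG had regions of both lines at the promoter, MYOD1 of RD alone and MYF5 of RH18 alone. A promoter region was found in neither line at 13 of the 44 sarcomere genes (such as MYH1, MYH2 and NEB) and at 8 of the 26 genes of fusion, excitation and metabolism (such as CKM and MB).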

How the data were processed

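H3K27ac was mapped by ChIP-seq in RD and RH18 and MYF5 in RH18, with 1 peak list per library. Per the submitters' processing notes, BWA 0.7.10 and MACS2 2.1.0 were used with hg19; their role, any control and the threshold are not given in the sources used here. Per peak, the authors deposited a fold enrichment (a ratio), the p-value and q-value as −log10, and a score, which is a rescaled p-value. These were not compared region by region between lines. Apart from the lowest −log10 p stated for each list, they served only in the alternatives. There the same q cutoff was set on both lists, although the scales of the lists may differ. The lists carry no read counts, so depth is unknown.

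Regions were compared by overlap of at least 1 bp, with exact Clopper-Pearson 95% intervals on shares (counting error only) and no test, since each line had 1 library. No hg19 annotation or genome was used. Positions of 451 of 453 listed genes (all but MYMX and PECAM1), and of 49 genes added after the runs were seen, were set by hand from general knowledge of hg19, and so the class by position and the promoter calls cover only these genes. All 500 matched RefSeq by symbol or synonym and chromosome, and 0 of 477 neighbouring pairs differed in order from RefSeq. Hand-set gene lengths lay within 10% of RefSeq's for 376 of 451 genes and outside it for 75, and none was changed. Members and lists were chosen with earlier results of these data known. The genes named are those of the myogenic, receptor kinase and cell cycle lists held by one line alone at promoter or locus. Also named are 9 set genes (MYF5, MYOD1, MYOG, PAX3, PAX7, MYC, MDM2, CDK4 and FGFR4) and up to 6 genes per other list with most bases in one line alone. The 10 loci per line are those with most unshared bases and no region of the other line. The 10 runs per line are those with most covered bases. Genes held by one line at the promoter are also listed by name, which goes beyond that rule. Overlap steps were tested on simulated regions. Tools were scipy 1.17.1, pandas 2.3.3 and numpy 2.4.6 in Python 3.11.15, with matplotlib 3.10.9 for figures. Some results are not reported here.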

Additional observations from a re-analysis of the deposited data

How the results depend on the processing

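The shares moved with most definitions. The share of RD regions that were shared was 27.5% with a reciprocal overlap of 50%, 69.5% with regions within 1 kb counted, 65.8% at a −log10 q of at least 10, 59.3% among the 20000 regions of largest −log10 p, and 61.2% without chromosomes 8 and 12. For RH18 the first 4 gave 25.6%, 54.9%, 36.9% and 49.2%. At placed starts, RD shares were 38.4% (reciprocal), 90.8% (within 1 kb), 78.7% (20000 regions) and 78.0% (window of 2.5 kb), and RH18 shares were 41.5%, 80% and, at the q of 10, 64.0%. Loci held by RD alone numbered 29 with the gene body alone, and those held by RH18 alone numbered 28 with 50 kb around the gene. Runs of 5 or more RD regions numbered 288 at the q of 10. All counts of promoter classes stayed within 1.5 times, also with the 3 genes of the empty chromosome 6 stretch kept (133 without a region), an alternative chosen after seeing the data. Among the 20000 regions, 16 of the 30 RD promoters and 29 of the 64 RH18 promoters kept their class, and 14 and 35 had no region. At the q of 10, promoters with both lines fell from 224 to 201 and those of RH18 alone rose from 64 to 86. There 8 of the 30 RD promoters had no region. No promoter held by one line in the main setting passed to the other line under any setting. That outcome was fixed in advance, because each setting only shortened the lists or only narrowed or widened the windows. It therefore says nothing about how firm the classes are. With a window of 2.5 kb, FGFR1, MYCN and MYMK were held by both lines, and with 500 bp KIT had no region. Among the 20000 regions PAX3 was held by RD alone, and TCF21, RXRG, FGFR1, PDGFD, KIT, MYCN, MYCL, HAND2 and TNNI2 had no promoter region. MYF5, MYF6, MYOD1, MYOG, CXCR4, BOC, ELN and TPM1 kept their class under every setting that included them. The motif search at summits was not run, since no hg19 genome was used here. No paired analysis was possible because each line had 1 library. The q of 10 left 29466 RD and 44460 RH18 regions.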
